A study of Mus musculus with 2 samples.

Results

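Monocyte recruitment was followed through 7 genes, which encode the chemokine receptors Ccr2 and Cx3cr1, the CC chemokines Ccl2, Ccl7, Ccl8, and Ccl12, and the CX3C chemokine Cx3cl1. The genes were taken as a list of names, chosen with earlier results of these data known, and all 7 were found among the 20299 genes of the count matrix. The data are 3′ droplet-based scRNA sequencing of kidneys with nephrotoxic serum nephritis (NTN), a model of glomerular injury in which mice immunized with sheep IgG are later injected with sheep serum against the glomerulus. WT mice were compared with Vsir-/- mice, which lack VISTA, a checkpoint molecule of macrophages and T cells, to ask how its loss alters the cells of the injured kidney. All animals were 8-week-old C57BL/6 mice, were given 200 μg of sheep IgG in complete Freund's adjuvant, and received the serum intravenously 4 days later, at 2 μL/g in the labels, while the study's methods state another dose. No restriction of the deletion to a cell type is stated, and the number of mice in each library is not given in the sources used here.

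Each genotype had 1 library, so no difference between genotypes has a replicate check, no test was made, and every interval covers counting error only, at the 95% level. The labels describe a CD45+ sort for the WT library and no such restriction for the Vsir-/- library, while the study's methods describe a CD45+ sort in general, so that genotype, sort, and library cannot be told apart. The WT library held 5470 cells and 32799550 unique molecular identifiers (UMIs, each standing for 1 captured transcript), with a median of 4727 UMIs per cell, and the Vsir-/- library held 1844 cells and 18601189 UMIs, with a median of 6673. A UMI of Ptprc, which encodes CD45, marked 94.2% of the WT and 73.6% of the Vsir-/- cells, and the targeted gene Vsir had 4278 UMIs in the WT library and 8 in the Vsir-/- library. The libraries shared 5 cell barcodes. Cells were grouped by the 16 clusters that the authors named, and UMIs were summed by cluster and library and expressed per 1000000 UMIs of the same cells (CPM), a scale on which a gene can be compared between groups but genes cannot be compared with each other.

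As background, Ccr2 is the receptor that lets Ly6C-high monocytes leave the bone marrow and enter inflamed tissue, and Ccl2, Ccl7, and Ccl12 are ligands of it in mice, whereas mouse Ccl8 is best known as a ligand of Ccr8. Cx3cr1 is carried by patrolling (nonclassical) monocytes, by many tissue macrophages, and by cytotoxic lymphocytes, and its ligand Cx3cl1 (fractalkine) is made as a membrane-anchored protein, mainly by endothelium and epithelium, and is shed by Adam10 and Adam17. In the kidney, Cx3cr1 marks the resident macrophages and Ccr2 mostly the cells that come from blood.

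The receptors divided the 3 macrophage clusters in the same way in both libraries. Among clusters of at least 20 cells, Ccr2 was highest in M2-like R2 macrophages, an infiltrating population rich in Ly6c2, at 912 CPM (884 to 941) in the WT library and 931 CPM (886 to 979) in the Vsir-/- library. Cx3cr1 was highest in R1 macrophages, the kidney-resident population, at 688 CPM (628 to 752) and 783 CPM (740 to 827). Other R2 macrophages held Cx3cr1 at 383 CPM (349 to 418) and 439 CPM (393 to 488) with little Ccr2, and their summed level of 8 nonclassical monocyte transcripts (Ace, Treml4, Cd300e, and others) reached 4767 CPM in the WT and 5039 CPM in the Vsir-/- library, against 1117 and 905 CPM in M2-like R2 macrophages.

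Among the other clusters, the next levels of Ccr2 were in gamma delta T cells, at 641 CPM (551 to 742) in the WT library and 485 CPM (388 to 599) in the Vsir-/- library, and in the cluster named plasmacytoid dendritic cells (pDC), at 476 CPM (397 to 567) and 457 CPM (420 to 498). The pDC cluster also held conventional dendritic cell transcripts, with Cd209a at 412 and 375 CPM and Xcr1 at 11.3 and 190 CPM. In WT cells the order went on with basophils at 385 CPM, R1 macrophages at 253 CPM, group 2 innate lymphoid cells (ILC2) at 233 CPM, and effector memory-like (EM-like) CD4+ T cells at 221 CPM. Neighbors in this order were not separated where the interval of their ratio included 1, which held for pDC and basophils, for R1 macrophages and ILC2, and for ILC2 and EM-like CD4+ T cells in the WT library. Among the 7 highest clusters of the Vsir-/- library it held for gamma delta T cells and pDC. It also held there for NK cells (166 CPM) and EM-like CD8+ T cells (163 CPM). The latter were likewise not separated from R1 macrophages (151 CPM), which ranked 7 there. The lowest WT levels were in CD4+ T cells of the non-EM-like cluster (4 UMIs of Ccr2 from 895 cells) and in B cells (19 UMIs from 969 cells).

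For Cx3cr1, the cluster after R1 macrophages in the WT library was EM-like CD8+ T cells at 552 CPM (502 to 605), followed by Other R2 macrophages, NK cells at 266 CPM (250 to 283), and M2-like R2 macrophages at 228 CPM (214 to 242). These 5 WT levels were separated by their intervals. Vsir-/- cells had the same 5 clusters at the top, but there Other R2 macrophages and EM-like CD8+ T cells at 410 CPM (318 to 519) were not separated, nor were M2-like R2 macrophages at 236 CPM (214 to 261) and NK cells at 225 CPM (186 to 270). No UMI of Cx3cr1 was found in gamma delta T cells of either library, where 46 WT and 28 Vsir-/- cells were captured, which allows shares of up to 6.52% and 10.7% of cells with a UMI, although Ccr2 was found in 84.8% and 92.9% of these cells. NK cells held both receptors in both libraries, with Ccr2 at 132 and 166 CPM.

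**Figure D1:**
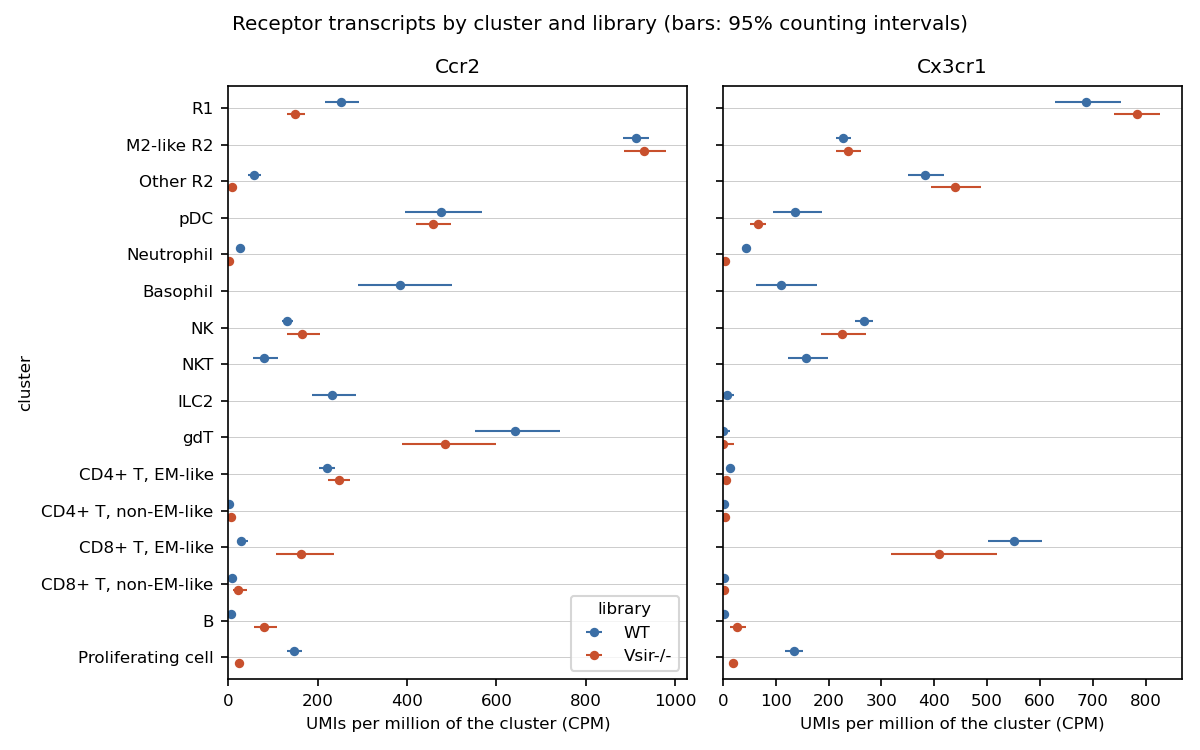
Level of Ccr2 (left) and Cx3cr1 (right) in CPM on linear axes, by cluster, in the WT library (blue) and the Vsir-/- library (orange); bars are exact Poisson 95% intervals, and groups of fewer than 20 cells are not drawn. Ccr2 peaks in M2-like R2 macrophages, at 912 and 931 CPM, and Cx3cr1 in R1 macrophages, at 688 and 783 CPM.

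Between the libraries, Ccr2 in M2-like R2 macrophages differed by a log2 ratio (Vsir-/- over WT) of 0.03, with an interval of −0.06 to 0.12, with a UMI in 363 of the 456 cells from WT mice (79.6%) and in 135 of the 168 from Vsir-/- mice (80.4%). Ccr2 was lower in R1 macrophages of the Vsir-/- library, with 176 WT UMIs and 241 Vsir-/- UMIs, which is 253 CPM (217 to 294) against 151 CPM (132 to 171) and a log2 ratio of −0.75 (−1.04 to −0.46). The difference in Other R2 macrophages was larger, from 74 UMIs and 57.8 CPM (45.4 to 72.5) in 188 WT cells to 7 UMIs and 9.06 CPM (3.64 to 18.7) in 131 Vsir-/- cells, a log2 ratio of −2.67 (−4.04 to −1.56). A single WT cell held up to 11 UMIs of Ccr2 and no Vsir-/- cell more than 1. In cells without any endothelial or podocyte UMI the log2 ratio was −1.38 (−3.37 to 0.17), from 23 and 4 UMIs.

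Cx3cr1 differed less. Its log2 ratio was 0.05 (−0.12 to 0.22) in M2-like R2 and 0.20 (−0.01 to 0.40) in Other R2 macrophages. In R1 macrophages, with 478 WT and 1253 Vsir-/- UMIs, the ratio was 0.19 (0.03 to 0.34), but it turned to −0.048 when each cell was reduced to 1000 UMIs, to −0.14 when each cell was given equal weight, and to −0.21 without cells that held a T or B cell marker UMI, so no direction is given for it. Neither receptor was 2-fold apart between the libraries in R1 or M2-like R2 macrophages. For comparison, of the 8862 genes with at least 20 UMIs in R1 macrophages, 8.78% were at least 2-fold lower and 13.6% at least 2-fold higher in the Vsir-/- library, and of 9751 genes in M2-like R2 macrophages 7.61% and 8.11% were. In Other R2 macrophages, where Ccr2 was more than 2-fold lower, 9.52% of 7555 genes were at least 2-fold lower.

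Transcripts of other cells moved with these values. In Other R2 macrophages all 6 T cell markers were at least 2-fold lower in the Vsir-/- library (summed level 320 CPM in WT, 6.47 CPM in Vsir-/-), as were all 4 B cell markers (1188 and 7.76 CPM), and the 5 neutrophil markers summed to 3581 and 211 CPM. The same lists in R1 macrophages summed to 574 and 20.6 CPM, 1131 and 56.2 CPM, and 1724 and 129 CPM. Classical monocyte transcripts were also lower in Vsir-/- R1 macrophages, with 3 of 5 genes with at least 20 UMIs at least 2-fold lower and a summed level of 1335 CPM in WT and 271 CPM in Vsir-/- cells. The drop was not particular to this list, as 6 of 7 such nonclassical monocyte genes were at least 2-fold lower there. Ly6c2, the monocyte antigen Ly6C, was at 157 CPM in WT and 30.0 CPM in Vsir-/- cells, and Plac8 at 799 and 85.6 CPM. Within WT R1 macrophages, the 32 cells with a Ccr2 UMI held the classical monocyte list at 2423 CPM and T cell markers at 913 CPM, against 700 and 376 CPM in the 84 cells without one. In cells without any T or B cell marker UMI, Ccr2 in Other R2 macrophages had 4 UMIs in 99 WT cells and 7 UMIs in 121 Vsir-/- cells, a log2 ratio of −0.056 (−2.03 to 2.16). With so few UMIs, a lower level was not detectable in these cells, and its absence is not shown, since the WT cells with Ccr2 were also deeper, with a median of 13408 UMIs against 4706 in those without it. For R1 macrophages the same selection kept 44 WT and 160 Vsir-/- cells, with a log2 ratio of −0.52 (−1.02 to 0.0086), an interval that included 0. The ratio itself stayed within the interval of the whole cluster (−1.04 to −0.46). Fewer cells widen an interval, so a loss of the lower level is not shown. The part of the neutrophil and monocyte transcripts in the lower Ccr2 was not tested.

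Both receptors were often found in the same M2-like R2 cell. The WT library had a UMI of each in 257 of 456 cells (56.4%, Clopper-Pearson interval 51.7% to 61.0%), and the Vsir-/- library in 100 of 168 (59.5%, 51.7% to 67.0%), and Cx3cr1 without Ccr2 in only 5.04% and 7.74%. R1 macrophages mostly had Cx3cr1 without Ccr2, at 58.6% of 116 cells in the WT and 60.8% of 237 in the Vsir-/- library, with both receptors in 25.0% (17.4% to 33.9%) and 16.9% (12.3% to 22.3%). In Other R2 macrophages, Cx3cr1 without Ccr2 was found in 64.4% and 72.5% and both in 12.8% (8.35% to 18.4%) and 4.58% (1.70% to 9.70%). In each of the 3 clusters the intervals of the libraries overlapped. Without cells that held a T or B cell marker UMI, Other R2 macrophages with both numbered 2 of 99 in the WT library (2.02%) and 6 of 121 in the Vsir-/- library (4.96%).

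Such shares depend on depth. With 1000 UMIs drawn from each cell (cells with fewer were left out, which kept 109 R1, 409 M2-like R2, and 180 Other R2 cells of the WT library and 212, 159, and 127 of the Vsir-/- library), both receptors were found in 11.5% and 9.43% of M2-like R2, 6.42% and 4.72% of R1, and 3.33% and 0% of Other R2 macrophages of the WT and Vsir-/- libraries, where 0 of 127 cells allows a share of up to 2.36%. Ccr2 alone was then found in 41.8% and 46.5% of M2-like R2 macrophages, and Cx3cr1 alone in 35.8% and 41.0% of R1 macrophages, where 48.6% and 47.6% of cells had neither. With all UMIs, M2-like R2 cells with both numbered 257 and 100, where receptors found independently of each other would give 223 and 90.8. At 1000 UMIs per cell they numbered 47 and 15, against 46.9 and 16.2. In WT B cells, a type that should lack both receptors, Ccr2 and Cx3cr1 were each found in 0.211% of cells at this depth, and in 1.14% and 0.929% of cells with all UMIs at a median of 3426 UMIs per cell (M2-like R2 macrophages, 9699).

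**Figure D2:**
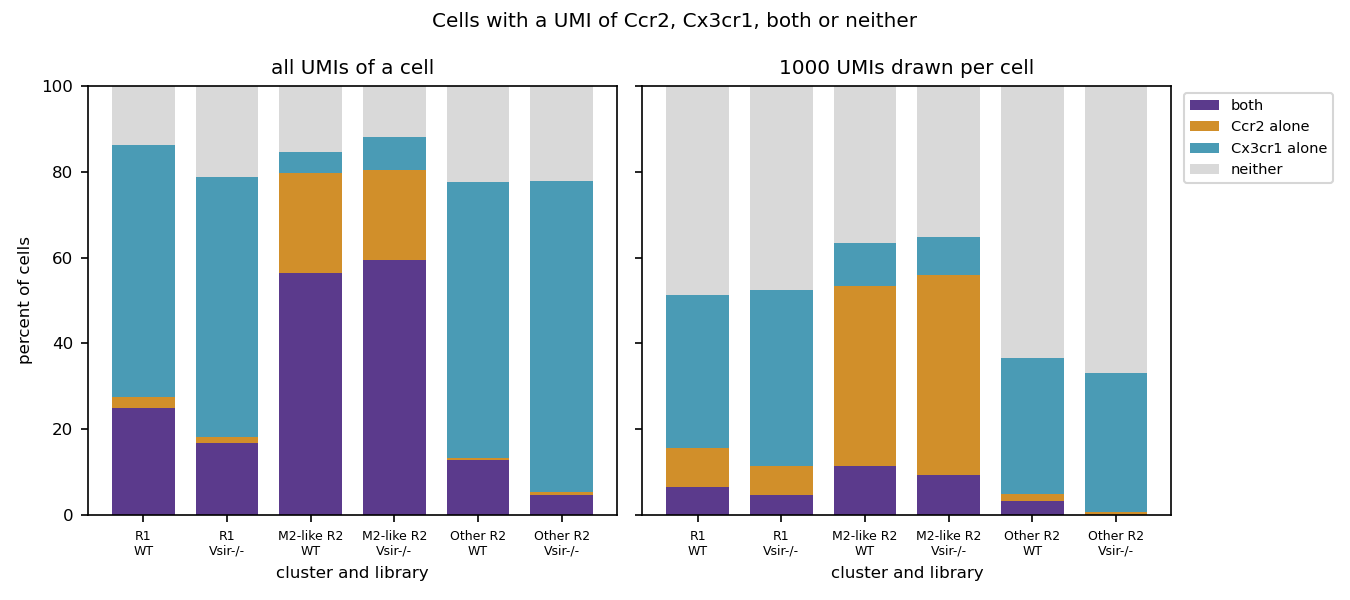
Percent of cells with a UMI of both receptors, of Ccr2 alone, of Cx3cr1 alone, or of neither, in the 3 macrophage clusters of each library, with all UMIs of each cell (left) and with 1000 UMIs drawn per cell (right). M2-like R2 macrophages have Ccr2 in about the same share of cells in both libraries (79.6% and 80.4%, left), whereas R1 and Other R2 macrophages mostly have Cx3cr1 alone (left). On the right, cells with neither receptor are the most common in these clusters. They make up 48.6% and 47.6% of R1 and 63.3% and 66.9% of Other R2 cells (WT, Vsir-/-).

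Within clusters, the receptors were spread unevenly. The 46 WT and 17 Vsir-/- cells of the M2-like R2 cluster with the most Ccr2 held 30.9% and 31.0% of its UMIs, with a median of 6 and 7.5 UMIs per cell. In R1 macrophages the median was 0, and the 12 WT and 24 Vsir-/- cells with the most Ccr2 held 71.6% and 83.4% of its UMIs. For Cx3cr1 in this cluster the medians were 3 and 4 UMIs, and the same number of top cells held 32.8% and 34.6%. Resident macrophage transcripts (C1qa, C1qb, C1qc, and 7 others) were also uneven in the Vsir-/- M2-like R2 cluster, at 3920 CPM in the 135 cells with Ccr2 and 12160 CPM in the 33 cells without it. In the WT cluster they were at 2098 and 1282 CPM.

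Lymphocytes showed other differences. In EM-like CD8+ T cells Ccr2 rested on 24 UMIs in 15 of 197 WT cells and 27 UMIs in 11 of 28 Vsir-/- cells, which is 29.2 CPM (18.7 to 43.4) and 163 CPM (107 to 237), a 5.58-fold higher level (3.10 to 10.1) in the Vsir-/- library. In this cluster 6.03% of 5521 genes were at least 2-fold higher and 9.98% at least 2-fold lower. Its makeup differed too, as 3 of 4 NK cell markers were at least 2-fold lower (summed level 1661 CPM in WT, 289 CPM in Vsir-/-). With 1000 UMIs drawn per cell, Ccr2 remained in 2.58% and 7.14% of the WT and Vsir-/- cells, with overlapping intervals, and the 11 Vsir-/- cells with Ccr2 held endothelial transcripts at 828 CPM, against 87.2 CPM in the 17 without. In EM-like CD4+ T cells, Ccr2 was at 221 and 247 CPM (1.12-fold higher, 0.985 to 1.28), where it was found in 223 of 489 and 132 of 244 cells, and in NK cells it was 1.25-fold higher (0.982 to 1.58). Gamma delta T cells had 180 WT and 86 Vsir-/- UMIs, 1.32-fold lower (1.02 to 1.73) in the Vsir-/- library. Cx3cr1 in EM-like CD8+ T cells was 1.35-fold lower (1.04 to 1.76), and in NK cells 1.18-fold lower (0.975 to 1.45). In pDC it went from 36 UMIs in 21 WT cells to 78 UMIs in 86 Vsir-/- cells, 2.06-fold lower (1.35 to 3.10), where 10.1% of 6767 genes were at least 2-fold lower. Other cell markers moved in pDC as well, with summed levels of 4080 and 2292 CPM for classical monocyte, 559 and 26.2 CPM for T cell, 616 and 16.1 CPM for B cell, 170 and 5.07 CPM for NK cell, and 521 and 791 CPM for conventional dendritic cell transcripts. Their part in the receptor values of these clusters was not tested.

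Within the WT NK cluster, the receptors were mostly in different cells, with Cx3cr1 alone in 263 of 594 cells, Ccr2 alone in 117, and both in 52. The Vsir-/- NK cluster had 35 of 67 cells with Cx3cr1 alone, 18 with Ccr2 alone, and 3 with both.

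In B cells, neutrophils, and proliferating cells the receptor values differed more, and their carriers differed from the rest of the cluster. Ccr2 was 14.7-fold higher (8.35 to 26.7) and Cx3cr1 10.3-fold higher (4.16 to 27.0) in the B cluster of the Vsir-/- library (16.3% of 9094 genes were at least 2-fold higher), but 43 of its 88 cells held no B cell marker UMI, and these held 38 of the 42 Ccr2 UMIs and all 14 Cx3cr1 UMIs. Endothelial markers summed to 3100 CPM in these 43 cells and to 170 CPM in the other 45. In neutrophils Ccr2 went from 64 WT UMIs to 2 Vsir-/- UMIs, 10.0-fold lower (2.66 to 84.5), and Cx3cr1 from 110 to 3, 11.5-fold lower (3.83 to 56.5), where 10.6% of 7197 genes were at least 2-fold lower. The 27 WT neutrophils with Ccr2 had a median of 8406 UMIs, against 3491 in the 497 without it, and held neutrophil markers at 167678 CPM against 268718 CPM. Proliferating cells had Ccr2 at 147 CPM in the WT library and 24.1 CPM in the Vsir-/- library, and Cx3cr1 at 134 and 20.2 CPM. In this cluster 9% of 12248 genes were at least 2-fold lower in the Vsir-/- library. Of its 189 Vsir-/- cells, 119 had no Ptprc UMI, with 3 Ccr2 and 2 Cx3cr1 UMIs between them. Among the 116 WT and 70 Vsir-/- proliferating cells with a Ptprc UMI, Ccr2 was at 144 and 60.6 CPM and Cx3cr1 at 134 and 51.3 CPM.

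The ligands had another distribution. Ccl12 was almost wholly a transcript of R1 macrophages, which held 252 of its 290 WT UMIs (86.9%) and 1382 of its 1494 Vsir-/- UMIs (92.5%). Ccl2 came mostly from M2-like R2 macrophages in the WT library, with 641 of 791 UMIs (81.0%). In the Vsir-/- library Ccl2 was found in proliferating cells (814 UMIs, 654 of them in 1 cell), R1 macrophages (673), and M2-like R2 macrophages (303). Ccl7 had lower counts, with 31 WT UMIs, of which 25 were in M2-like R2 macrophages. Of its 503 Vsir-/- UMIs, 357 were in R1 macrophages, 64 in M2-like R2 macrophages, and 37 in proliferating cells (25 of these in 1 cell). Neither Ccl8 nor Cx3cl1 had a UMI among 5470 WT cells, which allows a level of up to 0.0915 CPM and a share of up to 0.0548% of cells with a UMI, whereas the Vsir-/- library had 82 UMIs of Ccl8, 70 of them in R1 macrophages, and 653 of Cx3cl1.

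**Figure D3:**
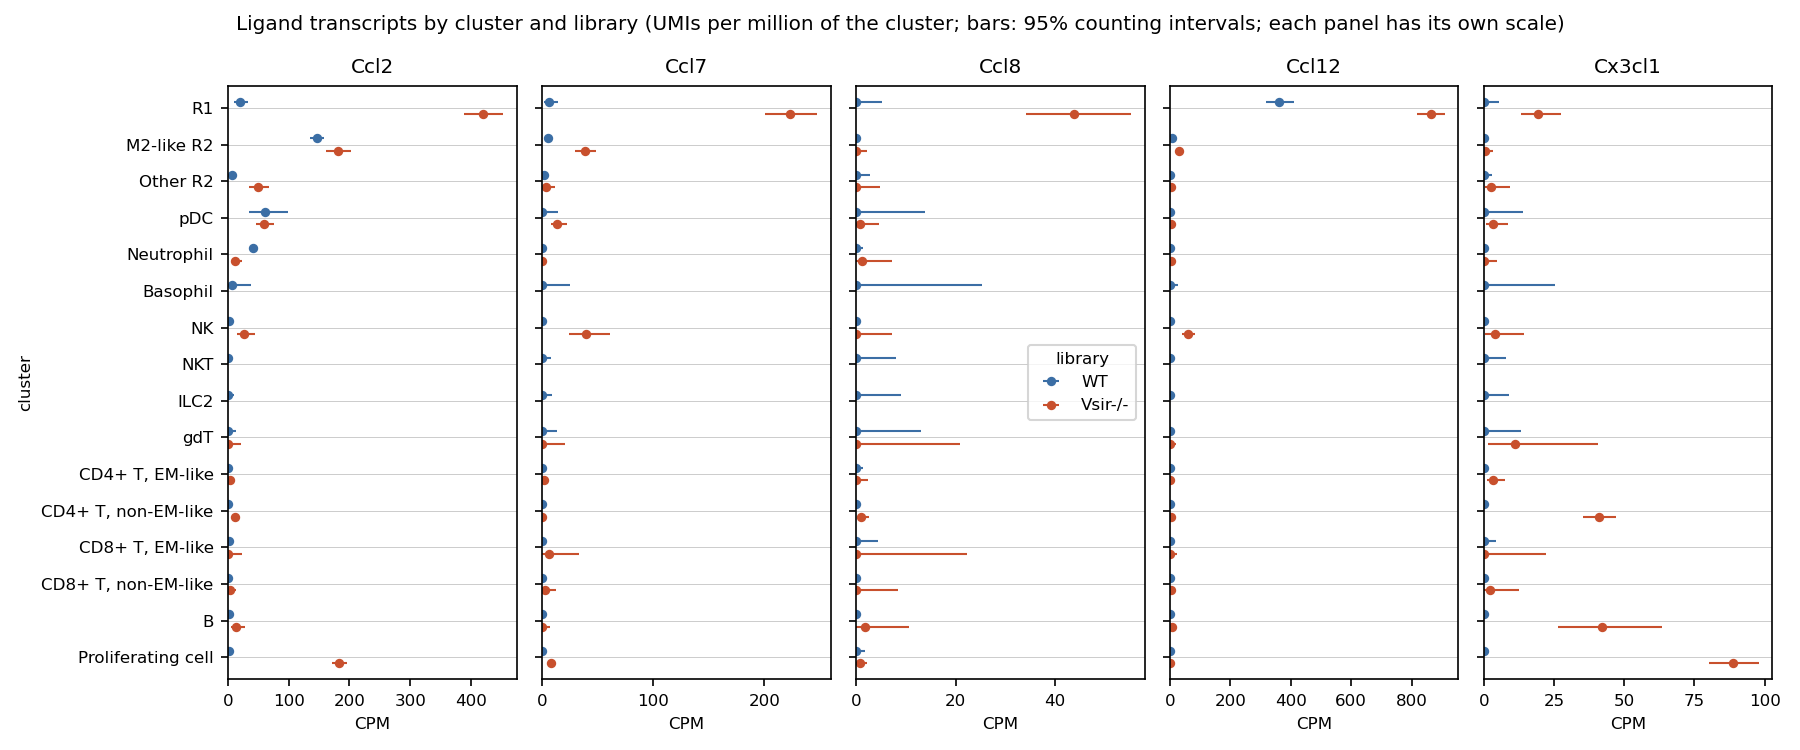
Level of the 5 ligands in CPM on linear axes, by cluster, in the WT library (blue) and the Vsir-/- library (orange); each panel has its own scale, bars are exact Poisson 95% intervals, and groups of fewer than 20 cells are not drawn. Ccl12 and Ccl8 sit in R1 macrophages, Ccl2 also in M2-like R2 macrophages and in Vsir-/- proliferating cells, and Cx3cl1 is at 0 in every WT cluster. Of the 814 Ccl2 UMIs of Vsir-/- proliferating cells, 654 lay in 1 cell.

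Ccl2, Ccl7, Ccl12, and Ccl8 lie in this order on chromosome 11, with Ccl11 between Ccl7 and Ccl12, and none of the 91-base words of their transcripts was shared between members, so reads of this length could be assigned to each gene. Promoters, from 250 bases before to 50 bases after the annotated start, were taken from RefSeq (GRCm38.p6, used here for sequence and not as the build of the counts), which had entries for 5 of the 7 genes. They are shown for Ccl12 and Ccl8, the neighbors whose transcripts were found mainly in R1 macrophages, with matches to GAGGAA, the core motif of the macrophage factor PU.1, and to TATAAA, the TATA box, in capitals.

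Ccl12 promoter, chr11:82101595-82101894 (+): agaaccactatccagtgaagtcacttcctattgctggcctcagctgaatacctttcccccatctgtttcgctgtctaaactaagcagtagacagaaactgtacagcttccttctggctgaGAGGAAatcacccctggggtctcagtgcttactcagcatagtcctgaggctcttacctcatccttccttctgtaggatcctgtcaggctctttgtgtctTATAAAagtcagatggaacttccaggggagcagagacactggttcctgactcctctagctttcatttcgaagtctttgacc
Ccl8 promoter, chr11:82114935-82115234 (+): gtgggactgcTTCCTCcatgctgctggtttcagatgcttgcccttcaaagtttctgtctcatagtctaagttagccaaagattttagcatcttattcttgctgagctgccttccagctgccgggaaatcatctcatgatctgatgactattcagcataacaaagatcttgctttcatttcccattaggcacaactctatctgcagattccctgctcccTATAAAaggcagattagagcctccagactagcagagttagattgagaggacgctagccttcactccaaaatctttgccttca

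Both promoters had 1 match to GAGGAA on either strand (the Ccl8 match lies on the reverse strand and reads TTCCTC) and 1 forward match to TATAAA, which began 31 bases before the start in Ccl12 and 32 bases before it in Ccl8. Of 32851 promoters of this length, 28.3% held GAGGAA and 13.6% TATAAA on either strand. Neither promoter had a match to an NF-kappaB motif (3 G, 5 bases of any kind, and 2 C, in 50.8% of promoters), TGANTCA (AP-1, 7.81%), or TTCNNNGAA (GAS, the interferon gamma-activated element, 8.30%), with both strands searched. Among the promoters not shown, that of Cx3cl1 had 2 matches to GAGGAA and 1 to TATAAA, and those of Ccr2 and Cx3cr1 had 0 of both. These matches therefore did not go with transcripts in macrophages among the members. A match is a description of letters in this window and not a binding site.

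R1 macrophages of the Vsir-/- library were higher in all 4 CC ligands. Ccl2, the main attractant of Ccr2+ monocytes, had 13 UMIs in 9 of 116 WT cells and 673 UMIs in 96 of 237 Vsir-/- cells, which is 18.7 CPM (9.96 to 32.0) and 420 CPM (389 to 453), a 22.5-fold higher level (13.1 to 42.4). For Ccl7, 4 UMIs in 2 WT cells and 357 UMIs in 53 Vsir-/- cells gave 5.76 CPM (1.57 to 14.7) and 223 CPM (200.4 to 247), 38.7-fold higher (15.0 to 142.9). Ccl8 had no UMI in the WT cells and 70 UMIs in 21 Vsir-/- cells, 43.7 CPM (34.1 to 55.2). This level, taken without its interval, was 10.1-fold above a limit of 3 counts in this WT cluster. Ccl12, the ligand already present in many WT cells, had 252 UMIs in 53 WT cells and 1382 UMIs in 142 Vsir-/- cells, or 363 CPM (319 to 410) and 863 CPM (818 to 910), a 2.38-fold higher level (2.08 to 2.73).

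Of the 8862 genes with at least 20 UMIs in R1 macrophages, 13.6% were at least 2-fold higher in the Vsir-/- library, and 5 members were among them. Of these, Ccl7, Ccl8, and Cx3cl1 had at most 4 WT UMIs and passed the minimum through the Vsir-/- library, so that they had to differ, and Ccl2 had 13. The values did not rest on cells without Ptprc. In the 110 WT and 185 Vsir-/- R1 cells with a Ptprc UMI, Ccl2 was at 19.0 and 421 CPM, Ccl7 at 5.85 and 216 CPM, and Ccl12 at 363 and 855 CPM. The highest Vsir-/- R1 cell held 5.50% of the Ccl2, 9.24% of the Ccl7, and 5.79% of the Ccl12 UMIs of the cluster. The 24 cells with the most of each gene held 68.8%, 87.7%, and 56.2%. Without the highest cell of each library the log2 ratios of Ccl2, Ccl7, and Ccl12 were 5.06, 7.13, and 1.35, with 8, 1, and 221 WT UMIs left. Taking out WT UMIs raises such a ratio by itself, so these values are no check on it. Every R1 cell of both libraries had a UMI of C1qa, C1qb, or C1qc, so a selection on these genes removed no cell and could not check the values.

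Other transcripts moved in the same cluster. All 8 kidney tubule markers and all 7 endothelial markers were at least 2-fold higher in Vsir-/- R1 macrophages, with summed levels of 7.20 and 1060 CPM and of 34.5 and 1104 CPM, and the 3 podocyte markers summed to 1.44 and 158 CPM. In the WT cluster 6 tubule, 5 endothelial, and 2 podocyte markers were at 0, and in the Vsir-/- cluster none was. In cells without an endothelial or podocyte UMI (99 WT, 143 Vsir-/-), the log2 ratios were 5.11 for Ccl2, 7.27 for Ccl7, and 1.20 for Ccl12, with 402, 225, and 675 Vsir-/- UMIs, and the limit for Ccl8 was 2.33, with 22. Without cells that held a T or B cell marker UMI they were 4.42, 4.80, and 0.89, from 3, 1, and 73 WT UMIs in 44 cells. Nearly all Vsir-/- R1 cells held a tubule UMI, since 3 of 237 cells had none, so values without such cells rest on these 3. Transcripts of tissue dissociation (Fos, Jun, Hspa1a, and 7 others) were at 6350 and 8433 CPM, with 0 of 10 genes 2-fold apart. In other clusters this list differed more. In EM-like CD4+ T cells (2688 and 8832 CPM) and NK cells (2632 and 5558 CPM), 8 of 10 genes were at least 2-fold higher in the Vsir-/- library. Of all genes with at least 20 UMIs in these 2 clusters, 10.4% and 9.86% were. Other R2 macrophages had 3 higher and 1 lower (4563 and 6842 CPM), and neutrophils 0 higher and 1 lower (5996 and 4023 CPM). Over all such genes, 6.71% were higher and 9.52% lower in Other R2 macrophages, and 9.99% and 10.6% in neutrophils. The part of all these transcripts in the member values was not tested.

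**Figure D4:**
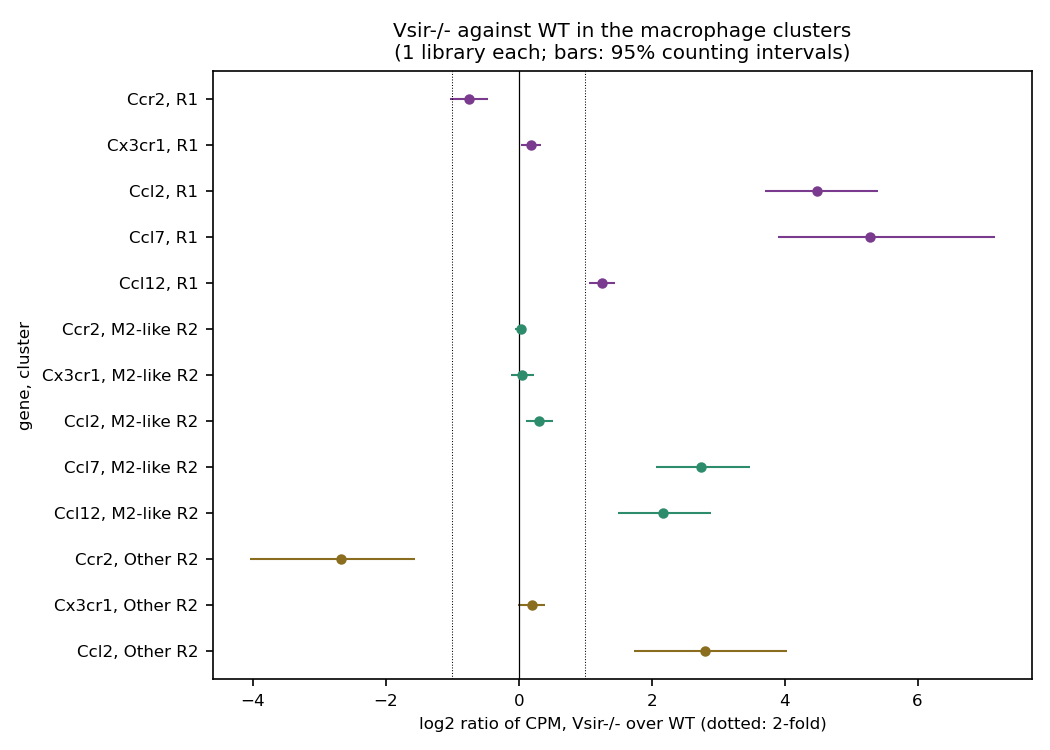
Log2 ratio of CPM, Vsir-/- over WT, for each member in R1 (purple), M2-like R2 (green), and Other R2 (brown) macrophages; bars are exact conditional 95% intervals, dotted lines mark 2-fold, and genes at 0 in the WT cluster or with at most 3 UMIs in both libraries have no point. In R1 macrophages Ccl2, Ccl7, and Ccl12 lie at 4.49, 5.28, and 1.25, and Cx3cr1 at 0.19.

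The R1 cells that carried these ligands overlapped. In the WT library 59 of 116 R1 cells (50.9%) had any of the 4 CC ligands, but only 5 (4.31%) had more than 1. Of 237 Vsir-/- R1 cells, 165 (69.6%) had any, 102 (43.0%) had at least 2, 33 had 3, and 6 had all 4. At 1000 UMIs per cell the shares with any were 21.1% in the WT library (23 of 109) and 50.5% in the Vsir-/- library (107 of 212), and those with at least 2 were 0%, which allows up to 2.75%, and 16.5%. Among Vsir-/- R1 cells, 42 of the 53 with Ccl7 (79.2%) also had Ccl2, while 42 of the 96 with Ccl2 (43.8%) also had Ccl7. Ccl12 was in 82.3% of cells with Ccl2, 83.0% with Ccl7, and 76.2% with Ccl8, against 59.9% of all 237 cells. With 1000 UMIs drawn per cell, these shares were 57.1%, 62.5%, and 28.6% (2 of 7 cells with Ccl8), against 37.7% of all 212 cells. The 142 cells with Ccl12 had a median of 6248 UMIs and the 95 without it 5380, so depth moved with detection. The medians were further apart for Ccl2 (7373.5 with and 4866 without), Ccl7 (7770 and 5542.5), and Ccl8 (8531 and 5850.5).

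In R1 macrophages of the Vsir-/- library, Ccl12 and Ccl7 were lower in the cells with Ccr2, while Ccl2 showed no single order. The 194 cells without Ccr2 held Ccl12 at 1024 CPM and Ccl7 at 270 CPM, and the 43 cells with Ccr2 held them at 399 and 87.5 CPM. Ccl2 was at 448 CPM in the cells without Ccr2 and 340 CPM in those with it. Split by Ccl2 instead, the 96 cells with it held Ccr2 at 164 CPM and the 141 without it at 136 CPM. WT R1 cells had the same order for Ccl12, at 467 CPM in the 84 cells without Ccr2 and 183 CPM in the 32 with it. WT Ccl2 went the other way, with 4 UMIs in the cells without Ccr2 and 9 in those with it. Vsir-/- R1 cells with Ccl12 also held more Cx3cr1, at 894 CPM against 570 CPM in cells without Ccl12. In WT R1 cells this order was not seen, with Cx3cr1 at 673 CPM in the 53 cells with Ccl12 and 706 CPM in the 63 without it.

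**Figure D5:**
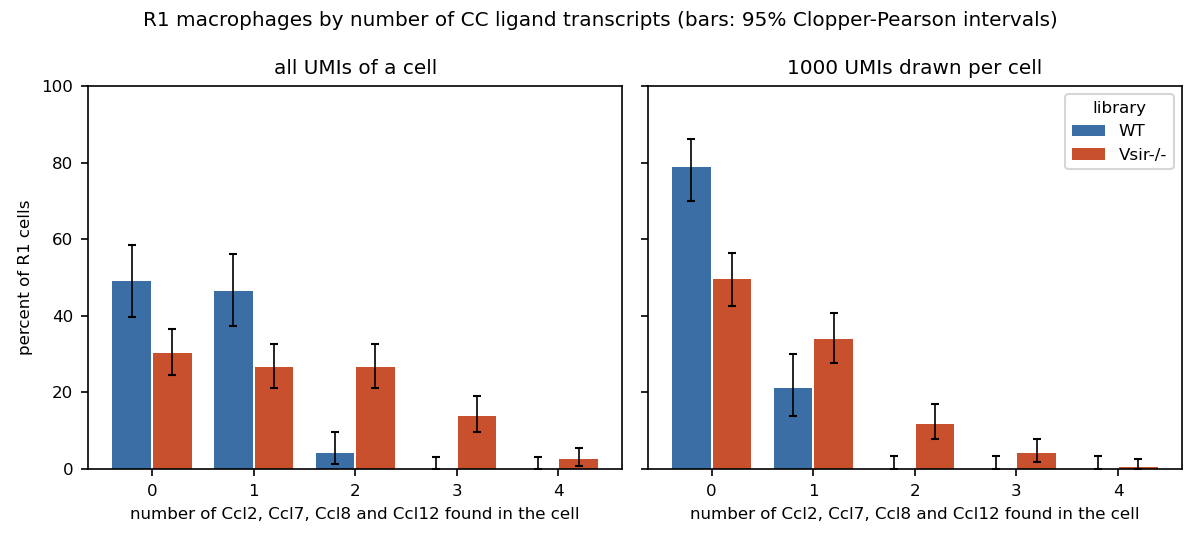
Percent of R1 macrophages by the number of CC ligands (Ccl2, Ccl7, Ccl8, Ccl12) found in the cell, in the WT library (blue, 116 cells) and the Vsir-/- library (orange, 237 cells), with all UMIs of each cell (left) and with 1000 UMIs drawn per cell (right, 109 and 212 cells); error bars are Clopper-Pearson 95% intervals. Cells with at least 2 ligands make up 4.31% of the WT and 43.0% of the Vsir-/- cluster with all UMIs.

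In M2-like R2 macrophages Ccl2 was closer between the libraries, with 641 UMIs in 135 of 456 WT cells and 303 UMIs in 43 of 168 Vsir-/- cells, at 146 CPM (135 to 158) and 181 CPM (161 to 202), a 1.24-fold higher level (1.08 to 1.42). Few cells held most of it, since the 46 WT and 17 Vsir-/- cells with the most Ccl2 had 72.9% and 86.5% of its UMIs. Ccl7 was 6.71-fold higher (4.17 to 11.1) and Ccl12 4.52-fold higher (2.81 to 7.41), but these rested on 8 and 10 Vsir-/- cells and on 9 and 11 WT cells. They were the 2 members at least 2-fold higher there, where 8.11% of 9751 genes were. The M2-like R2 cells that carried Ccl2 mostly carried its receptor, with Ccr2 in 130 of the 135 from the WT library and 41 of the 43 from the Vsir-/- library, compared with 79.6% and 80.4% of all cells of the cluster, and the cells with Ccl2 were also deeper (median 11869 UMIs in WT, against 8510 without Ccl2). Resident macrophage transcripts moved with the ligands here too, as C1qa, C1qb, and C1qc were at 31.9, 33.7, and 12.5 CPM in WT and at 378, 618, and 295 CPM in Vsir-/- M2-like R2 macrophages. The 10 Vsir-/- cells with Ccl12 held the resident list at 13235 CPM, and the other 158 at 4518 CPM. The part of these transcripts in the higher Ccl7 and Ccl12 was not tested.

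Other R2 macrophages held few ligand transcripts. Ccl2 had 9 UMIs in 8 of 188 WT cells and 38 UMIs in 17 of 131 Vsir-/- cells, at 7.03 CPM (3.21 to 13.3) and 49.2 CPM (34.8 to 67.5), a log2 ratio of 2.81 (1.73 to 4.04), where 6.71% of 7555 genes were at least 2-fold higher. Ccl7 and Ccl12 had at most 3 UMIs in either library, and Ccl8 had none.

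With the 3 macrophage clusters pooled, Ccl2 was 2.41-fold higher (2.18 to 2.66), Ccl7 21.5-fold (14.9 to 32.1), and Ccl12 8.03-fold higher (7.06 to 9.16) in the Vsir-/- library. Ccl8 was 36.7-fold above a limit of 3 WT counts. Of 11517 genes in these pooled cells, 15.6% were at least 2-fold higher. The mix of clusters enters these values, because R1 cells were 116 of 760 WT and 237 of 536 Vsir-/- macrophages. In the pooled cells Ccr2 was at 668 CPM (648 to 689) in WT and 447 CPM (426 to 468) in Vsir-/-, and Cx3cr1 at 309 CPM (295.5 to 323) and 491 CPM (469.6 to 513). Within M2-like R2 macrophages the same genes had Vsir-/- over WT ratios of 1.02 and 1.04. Ccr2 had ratios of 0.594 in R1 and 0.157 in Other R2 macrophages, so it was lower within these clusters too. Once cells with a T or B cell marker UMI were left out, neither lower level was separated by its interval, as given above. Fewer cells and UMIs were then left, so the lower levels are not shown to go away. Cx3cr1 had ratios of 1.14 and 1.15 there, with no direction given for R1, as stated above. For the share of each cluster, the sort and the genotype cannot be told apart. Without cells that held a T or B cell marker UMI, the pooled log2 ratios were 0.87 for Ccl2, 2.44 for Ccl7, and 2.31 for Ccl12, with 296 WT and 423 Vsir-/- cells left.

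Outside the macrophages, Ccl2 was found in 28 of 524 WT neutrophils (102 UMIs, 41.1 CPM) and 8 of 158 Vsir-/- neutrophils (9 UMIs, 11.6 CPM), 3.55-fold lower (1.80 to 7.98). The 28 WT carriers held resident macrophage transcripts at 1458 CPM and neutrophil markers at 178283 CPM, against 466 and 261777 CPM in the other 496 cells. The pDC cluster had 16 WT and 70 Vsir-/- UMIs, at 60.4 and 59.2 CPM, a ratio of 0.979 (0.563 to 1.81). The 814 Ccl2 UMIs of Vsir-/- proliferating cells came largely from 1 cell, which held 654 of them among 145955 UMIs and had no Ptprc UMI, 1291 UMIs of Spp1, and 766 of Igfbp7. Another cell held 98, and without these 2 cells the cluster was at 14.7 CPM in place of 183 CPM. The 118 WT cells had 1 UMI, and 37.5% of 12248 genes were at least 2-fold higher in this cluster. In Vsir-/- NK cells, 13 UMIs of Ccl2, 20 of Ccl7, and 30 of Ccl12 came from 3 of 67 cells, which held resident macrophage transcripts at 4808 CPM, against 248 CPM in the other 64.

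Cx3cl1 had UMIs in the Vsir-/- library and none in the WT library. Its 653 UMIs lay in 144 of 1844 cells, with 394 UMIs in 53 proliferating cells, 188 UMIs in 62 cells named as CD4+ T cells of the non-EM-like cluster, 31 UMIs in 9 R1 cells, and 22 UMIs in 4 cells of the B cluster. Of the 144 cells, 89 had no Ptprc UMI, and these held 381 of the UMIs. That CD4+ cluster held 349 Vsir-/- cells, of which 243 were without a Ptprc UMI and 233 without a T cell marker UMI. Over the whole library the level was 35.1 CPM (32.5 to 37.9), and 35.1 CPM was 384-fold above the limit of 3 counts in the WT library.

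Cells with Cx3cl1 were rich in transcripts of glomerular cell types. Among the CD4+ cells, the 7 endothelial markers summed to 4581 CPM in the 62 cells with Cx3cl1 and 506 CPM in the 287 without it, and the 3 podocyte markers to 523 and 53.8 CPM, whereas the 8 tubule markers were lower, at 1662 and 8308 CPM. Proliferating cells showed the same order, at 6642 and 613 CPM for endothelial, 494 and 79.9 CPM for podocyte, and 730 and 3810 CPM for tubule markers. The cells with Cx3cl1 were also much deeper, with medians of 24252 and 38594 UMIs against 6540 and 11625 in the cells without it, so that detection and depth moved together. In the 9 R1 cells with Cx3cl1 the endothelial list was at 6454 CPM, against 390.0 CPM in the other 228, and the B cluster's 22 UMIs all lay in cells without a B cell marker. At 1000 UMIs per cell, 0.849% of all Vsir-/- cells had Cx3cl1, in place of 7.81% with all UMIs. A CD45+ sort, as the labels give for the WT library, would remove endothelial cells and podocytes, so sort and genotype cannot be told apart for this gene.

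The sheddases Adam10 and Adam17 were within 2-fold in all 3 clusters, as were the 6 genes of receptor coupling (the G protein subunits Gnai2 and Gnai3, the arrestins Arrb1 and Arrb2, the kinase Grk2, and Nup85), with Gnai2 at 779 and 996 CPM in R1 macrophages. Among the other receptors of these ligands, Ccr1 stood at 33.1 and 98.7 CPM in WT and Vsir-/- R1 macrophages, at least 2-fold higher in the Vsir-/- library. All 4 receptors of this list summed to 373 and 377 CPM there, so their summed level hardly differed. In Other R2 macrophages both of the other receptors with at least 20 UMIs were at least 2-fold lower in the Vsir-/- library, and all 4 of the list summed to 28.1 and 6.47 CPM, with Ccr1 at 18 WT and 3 Vsir-/- UMIs. Ccr3 and the decoy receptor Ackr1 had no UMI in any of the 3 clusters, Ccr8 had 1, and Ackr2 had 1. Of the 8 classical monocyte genes in M2-like R2 macrophages, 1 was at least 2-fold higher and 1 at least 2-fold lower, with a median log2 ratio of −0.72 (0.0080 over all genes) and summed levels of 12822 and 9654 CPM. Fn1 (fibronectin) was the higher one, at 499 and 1466 CPM, and Ly6c2 was at 2972 and 1673 CPM.

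Across the 29 cluster and library groups of at least 20 cells, the genes whose level was most like each member were ranked by Pearson correlation of log2(CPM + 1) over 11262 genes. These groups share libraries, depth, and free RNA, so the values are descriptions. Ccr2 was most like S100a4 (r = 0.80), Coro2a, Crip1, Ebp, and Sdccag8. Cx3cr1 was most like Lair1 (r = 0.88), Efhd2, Itgax, Zeb2, and Snx10. Ccl2 was most like Aph1c (r = 0.89), Asah1, Rab11fip5, Grn, and Tmem106a, and Ccl7 most like Ccl12 (r = 0.79), Cgas, Myof, Dipk2a, and C1qa. Ccl12 followed Zmynd15 (r = 0.91) and then C1qb, C1qa, C1qc, and Pf4, and Cx3cl1 followed Adamts5 (r = 0.98), Fgf1, Boc, Efna1, and Amotl1. Ccl8, with under 200 UMIs, was not ranked.

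In the whole libraries, the log2 ratios were 2.14 for Ccl2, 4.84 for Ccl7, 3.18 for Ccl12, −0.18 for Ccr2, and 0.07 for Cx3cr1, beside a median of 0.40 over the 15687 genes with at least 20 UMIs. Of these genes 33.9% were at least 2-fold higher in the Vsir-/- library, so the whole-library values carry the difference in cell makeup.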

How the data were processed

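The deposited matrix held UMI counts per gene and cell, made by the authors with Cell Ranger 3.1.0 and Seurat 3.2.3 in R 4.0.3 per the submitters' processing notes, which name the build mm9. The authors kept genes found in at least 5 cells and cells with at least 200 UMIs and no more than 10% mitochondrial reads, and deposited each cell's cluster, library, percent of mitochondrial counts, and UMAP coordinates (not used here). Counts were summed by cluster and library. Levels have exact Poisson intervals, ratios exact conditional intervals, and shares Clopper-Pearson intervals, all at 95%. A level of 0 was compared through a limit of 3 counts, and no ratio was given where both libraries had at most 3 UMIs. Folds and bounds against this limit used the level of the other library without its counting interval. Counts of genes at least 2-fold apart used 20 UMIs as the minimum and a pseudocount of 0.5. Some shares were recomputed with 1000 UMIs drawn per cell. Calculations used Python 3.11.15, numpy 2.4.6, scipy 1.17.1, and pandas 2.3.3 and were tested on simulated data, and plots were drawn with matplotlib 3.10.9. The genes named are the 7 members, the fixed lists of partners and cell markers, and the 5 genes most like each member. Members and lists were chosen with earlier results of these data known. Doublets were neither called nor removed here. Each alternative changed 1 choice, among which cells were kept, how deep, over which total, and with what weight. Some items of the fixed lists are not reported here.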

Additional observations from a re-analysis of the deposited data

Results flagged for a closer look

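Some members had opposite directions in different clusters, and the difference between the clusters was not tested. The log2 ratio of Ccr2, Vsir-/- over WT, was 3.88 in B cells and −3.33 in neutrophils. That of Cx3cr1 was 3.37 in B cells and −3.52 in neutrophils. For Ccl2 it was 8.52 in proliferating cells and −1.83 in neutrophils. The B cell values lay largely in 43 cells without a B cell marker UMI, and 654 of the 814 Ccl2 UMIs of Vsir-/- proliferating cells lay in 1 cell.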

How the results depend on the processing

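No paired analysis was possible because each genotype had 1 library. Of 135 alternative values of the member ratios in macrophages, 97 stayed within the counting interval of the reported ratio and 38 did not. Of the latter, 3 (reversed) changed the sign of a ratio whose interval excluded 0. A further 8 of the 135 changed sign where that interval included 0, and the causes were not tested. The limits are the single library per genotype, the sort, and the depth per cell.

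With 1000 UMIs drawn per cell, the log2 ratio of Ccr2 in M2-like R2 macrophages was 0.21, that of Cx3cr1 was −0.048 in R1 (reversed) and −0.26 in M2-like R2, that of Ccl12 in R1 was 0.99, and the bound for Ccl8 in R1 was 1.16. In pooled macrophages Ccl2 was 1.46, Ccl12 2.47, and the Ccl8 bound 2.60. Both receptors were then found in 6.42% and 4.72% of R1, 11.5% and 9.43% of M2-like R2, and 3.33% and 0% of Other R2 cells (WT, Vsir-/-). WT R1 cells then had no Ccl2 or Ccl7, so no ratio was given. With each cell weighted equally, Ccr2 in M2-like R2 was 0.17, Cx3cr1 was −0.14 in R1 (reversed) and −0.038 in Other R2, and pooled Ccl2 and Ccl12 were 1.59 and 2.62. Genes at 0 in the WT library could not be weighted.

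Leaving out cells with a tubule UMI kept 3 R1, 4 M2-like R2, and 5 Other R2 cells of the Vsir-/- library, with ratios of −2.80 for Ccr2 in M2-like R2, 0.77 and −0.85 for Cx3cr1 in R1 and Other R2, 3.65 for Ccl7 and 1.96 for Ccl12 in R1, and 2.35 and 3.53 for pooled Ccl7 and Ccl12. Whole-library Ccl2, with 27 such Vsir-/- cells, was −0.19 (reversed). Leaving out cells with an endothelial or podocyte UMI, an alternative chosen after seeing the data, gave 0.13 and −1.38 for Ccr2 in M2-like R2 and Other R2, 7.27 for Ccl7 and 2.33 for the Ccl8 bound in R1, and 3.91 and 2.76 for pooled Ccl8 and Ccl12. Without the highest cell of each library pooled Ccl7 was 5.02, and whole-library Ccl2 was 1.66. Leaving out cells with a T or B cell UMI, for the ratios also chosen after seeing the data, gave −0.11 and −0.056 for Ccr2 in M2-like R2 and Other R2, −0.21 (reversed) and −0.049 for Cx3cr1 in R1 and Other R2, 0.93 for the Ccl8 bound and 0.89 for Ccl12 in R1, and 0.87, 2.44, 2.70, 2.31, and 1.70 for pooled Ccl2, Ccl7, Ccl8, Ccl12, and Cx3cl1, those of Ccl8 and Cx3cl1 being bounds. In these cells both receptors were found in 15.9%, 64.1%, and 2.02% of WT R1, M2-like R2, and Other R2 cells. The 2-fold higher and lower gene counts of R1 macrophages, 1204 and 778, became 276 and 181 at 100 UMIs and 3480 and 2544 at 1 UMI. In M2-like R2 macrophages 791 and 742 became 231 and 251 or 3730 and 1565, and in Other R2 macrophages 507 and 719 became 115 and 165 or 3252 and 2060.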
